A study of Mus musculus with 7 samples.

Results

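Zfp is the symbol stem of mouse zinc finger protein genes. They were compared in light zone germinal centre B cells of mice labelled MIZ1KO and Control. MIZ1 is the transcription factor encoded by Zbtb17. A gene was taken as a member if the GENCODE vM21 annotation of build GRCm38 lists it as protein-coding, its symbol is Zfp followed by a digit, and at least 3 libraries held 30 or more counts. That rule took 224 of 394 annotated genes, and with Zfp990, which was named in the rule although the third highest of its counts was 29.97, there were 225 members among 48795 genes listed. Of the other annotated Zfp genes, 41 had no counts in any library and 128 had counts below the threshold. Zfp990 and Zfp991 were chosen by their difference between the genotypes in these same libraries, so their values are given as a description with no test. The other 223 members were counted in the tests.

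The MIZ1KO group held 3 libraries and the Control group 4. Both groups were spleen B cells sorted as light zone germinal centre cells 10 days after mice received sheep red blood cells into a vein, an antigen that raises germinal centres, so immunisation is shared by all samples. In the sample names the MIZ1KO libraries carry the tag MizFF and the Control libraries the tag eYFP. The Cre driver, the strain and the age of the mice are not stated in the labels. The labels do not say that each library came from its own animal, so the p-values measure the spread between these libraries, which may in part be technical. In bulk RNA, fewer cells of a kind and less RNA per cell cannot be told apart.

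Most Zfp proteins are C2H2 zinc finger proteins, in which each finger folds around a zinc ion and reads a few bases of DNA, and arrays of fingers read longer sites. Many also carry a KRAB box, which recruits the co-repressor TRIM28 and, through it, the histone methyltransferase SETDB1 and heterochromatin proteins. KRAB zinc finger genes lie in clusters that grew by tandem duplication, they are known for silencing transposable elements, and a cluster on distal mouse chromosome 4 differs between inbred strains. Another branch of the stem, the Zfp36 family, has CCCH fingers that bind AU-rich RNA and lead to its decay. Among the 225 members, a pattern search found a KRAB box in the translated coding sequence of 120 and none in that of 105. Such a search can miss a box, so members described below as without one are those with no match.

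The chromosome 4 cluster shows how alike these genes can be. Shown first is 1 zinc finger of 6 of its genes, the finger of Zfp991 that differed least over the cluster genes compared and its closest match in each of the others. Each is 84 bases of the coding strand in 1 exon, and capitals mark bases that differ from Zfp991. On GRCm38 they lie at chr4:145537409-145537492 (plus strand) for Zfp990, chr4:147179143-147179226 (plus) for Zfp991, chr4:146466799-146466882 (plus) for Zfp992, chr4:146658028-146658111 (plus) for Zfp993, chr4:147755172-147755255 (minus) for Zfp984 and chr4:147826574-147826657 (minus) for Zfp933.
Zfp990: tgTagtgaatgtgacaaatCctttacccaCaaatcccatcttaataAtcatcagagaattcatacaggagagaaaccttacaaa
Zfp991: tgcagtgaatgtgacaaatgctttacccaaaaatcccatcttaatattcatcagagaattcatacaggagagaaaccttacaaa
Zfp992: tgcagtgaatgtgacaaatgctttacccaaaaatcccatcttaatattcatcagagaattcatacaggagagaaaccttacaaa
Zfp993: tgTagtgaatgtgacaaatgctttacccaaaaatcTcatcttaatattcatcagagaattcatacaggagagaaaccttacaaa
Zfp984: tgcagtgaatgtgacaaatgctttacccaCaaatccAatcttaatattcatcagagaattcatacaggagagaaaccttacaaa
Zfp933: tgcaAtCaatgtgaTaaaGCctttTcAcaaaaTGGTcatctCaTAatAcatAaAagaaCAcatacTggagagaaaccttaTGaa
Zfp992 matched Zfp991 at every base of this finger, Zfp993 and Zfp984 differed at 2 bases each, Zfp990 at 4 and Zfp933 at 22. Over whole transcripts, 82.2% of the 50-base words of Zfp991 also occurred in a transcript of another gene, with the pseudogene Znf41-ps as its closest partner. The same share was 54.5% for Zfp984, 43.0% for Zfp992, 29.1% for Zfp990 and 1.83% for Zfp933. The counts of the first 4 of these genes are therefore uncertain, since reads that match several copies can be split between them in ways the sources used here do not give.

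Library totals lay between 6896643 and 9482418 estimated counts, of which 3087979 to 5084984 lay outside ribosomal RNA, and the 225 members together drew 27454 to 50257 counts per library. Levels below are in CPM, counts normalised to the scaled library size. Nuclear transcripts moved with genotype. Transcript models of the annotation class TEC, unspliced models that still lack experimental support, held 0.544% to 0.923% of non-ribosomal counts in MIZ1KO and 1.02% to 2.58% in Control, and the nuclear RNA Malat1 took 0.256% to 0.490% in MIZ1KO and 0.687% to 1.52% in Control. Neither range overlapped. B cell markers were high in all libraries, with a summed level of 3534 to 3673 CPM in MIZ1KO and 2753 to 3382 CPM in Control over 6 genes. Of these, 4 lay above 0, and Cd79a was called higher, at 669 ± 84.2 CPM in MIZ1KO and 368 ± 60.8 CPM in Control (SD, n = 3 and 4, edgeR adjusted p = 0.0333). Germinal centre markers summed to 727 to 801 CPM in MIZ1KO and 585 to 998 CPM in Control over 7 genes, while within the list Rgs13, a regulator of G protein signalling, was lower (67.1 ± 22.3 CPM in MIZ1KO and 168 ± 77.9 CPM in Control, SD, n = 3 and 4, edgeR adjusted p = 0.0230). Mef2b averaged 69.5 ± 1.601 CPM in MIZ1KO and 39.5 ± 16.5 CPM in Control (adjusted p = 0.0638). Light zone markers summed to 565 to 646 CPM in MIZ1KO and 494 to 691 CPM in Control over 6 genes. Dark zone markers summed to 1683 to 2354 CPM in MIZ1KO and 1123 to 1739 CPM in Control, most of it Mki67. Of these 6 genes 5 lay above 0 and 0 were called. Plasma cell markers (177 to 255.5 and 205 to 377 CPM), erythroid markers (61.0 to 489 and 115 to 425 CPM) and myeloid markers (5.91 to 29.7 and 8.92 to 12.8 CPM) overlapped between MIZ1KO and Control. The 8 T cell markers summed to 43.3 to 52.0 CPM in MIZ1KO and 26.2 to 32.8 CPM in Control, most of it Lck, and none was at 0 in all libraries. Trbc2, a T cell receptor constant gene, was higher, at 3.09 ± 1.66 CPM in MIZ1KO and 0.0984 ± 0.197 CPM in Control (SD, n = 3 and 4, edgeR adjusted p = 0.0190). The stroma list summed to 57.8 to 71.6 CPM in MIZ1KO and 104.5 to 123 CPM in Control over 5 genes, with Col1a1 at 0 in all libraries. Most of it was Cr1l, a complement regulator, which was lower, at 63.2 ± 5.73 CPM in MIZ1KO and 114 ± 8.98 CPM in Control (SD, n = 3 and 4, edgeR adjusted p = 0.0189). Cr1l was the only gene of the list with enough counts for the test, so the sum gives no reading of stroma as a whole. The part of these markers in the results was not tested.

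Zbtb17, the targeted gene, lies at chr4:141444654-141467930 and had 5.16, 3.70 and 4.50 CPM in the MIZ1KO libraries, against 3.15, 3.42, 3.15 and 7.02 CPM in the Control libraries. The groups overlapped, and the log2 fold change was 0.03 ± 0.46 (SE, adjusted p = 0.975, edgeR quasi-likelihood F-test with Benjamini-Hochberg adjustment over 11618 genes). The labels do not say which exons the allele removes, so a count over the whole gene does not check the genotype. MIZ1KO here means a library with that label.

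Zfp990, a KRAB zinc finger gene at chr4:145510759-145539188, was detected in MIZ1KO and almost absent from Control. It had 10.8, 5.60 and 4.83 CPM in the MIZ1KO libraries, against 0.131, 0, 0 and 0 CPM in the Control libraries. The groups did not overlap. In all, 187 counts fell on it in MIZ1KO and 1 in Control, a ratio of 232 with a 95% counting interval of 41.1 to 9204, which covers counting error only.

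Zfp991, a KRAB zinc finger gene at chr4:147132038-147180579, ran the other way. It had 4.30, 0.699 and 4.67 CPM in the MIZ1KO libraries, against 11.4, 9.49, 7.22 and 11.3 CPM in the Control libraries. The groups did not overlap, and MIZ1KO replicate 2 was the lowest library. The ratio of MIZ1KO over Control was 0.298, with a 95% counting interval of 0.229 to 0.384. That interval covers counting error only, not the spread between libraries or the assignment of shared reads. Znf41-ps, with which Zfp991 shares 67.1% of its words, averaged 0.675 ± 0.556 CPM in MIZ1KO and 5.15 ± 2.45 CPM in Control (SD, n = 3 and 4), or -3.10 ± 0.70 as log2 fold change (SE, adjusted p = 0.0189 by edgeR). Reads can be split between Znf41-ps and Zfp991, so this test is not independent of the values by which Zfp991 was chosen.

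**Figure D1:**
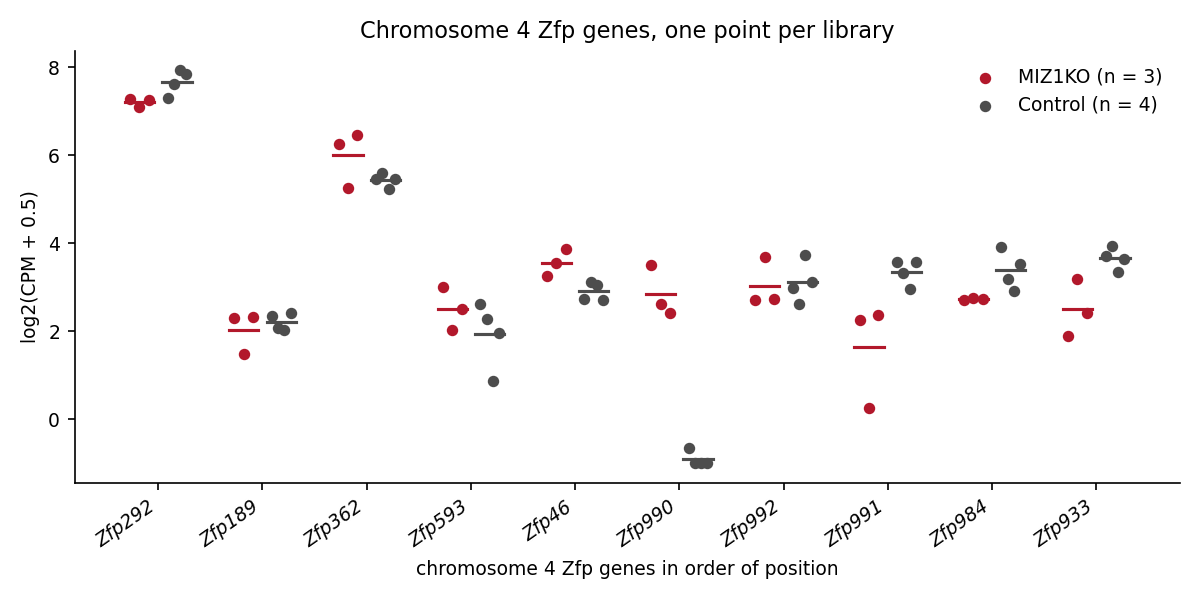
CPM of the 10 chromosome 4 Zfp genes on a log2(CPM + 0.5) scale, with 1 point per library, MIZ1KO in red left of Control in grey, short lines at the mean of the log2 values and genes in order of position. Zfp990 has values of 4.83 to 10.8 CPM in MIZ1KO and 0 to 0.131 CPM in Control, while the other genes lie closer together.

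Another 3 chromosome 4 members lie in the same cluster, a run of 18 annotated Zfp genes between 145510759 and 147848366, and none was called. Zfp933 had 3.22, 8.59 and 4.83 CPM in MIZ1KO, against 12.6, 14.8, 9.71 and 11.9 CPM in Control, without overlap (log2 fold change -1.11 ± 0.38, SE, edgeR adjusted p = 0.0870). It is the member of the cluster with the fewest shared words, so its counts depend least on how such reads were assigned. Zfp984 had 6.02, 6.20 and 6.11 CPM in MIZ1KO, against 14.6, 8.56, 7.09 and 11.03 CPM in Control, also without overlap (-0.76 ± 0.37, edgeR adjusted p = 0.213). Zfp992 had 6.02, 12.3 and 6.11 CPM in MIZ1KO, against 7.34, 5.60, 12.9 and 8.22 CPM in Control (-0.04 ± 0.40, edgeR adjusted p = 0.963). Its groups overlapped throughout.

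Of the cluster's genes below the count threshold, Zfp993, with 86.8% of its words shared, held 11.99, 14.3 and 18.3 counts in MIZ1KO, against 26.2, 44.8, 28.1 and 44.4 counts in Control (edgeR adjusted p = 0.130). Zfp534, with 68.4% of its words shared, held 2.21, 3 and 2.48 counts in MIZ1KO and 0 in each Control library, too few for the test. Both lie in the cluster of Zfp990 and Zfp991 and were picked from its genes after their values were seen.

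The 5 members elsewhere on chromosome 4 were not called either. Zfp292, the best expressed per kilobase of the 10, had 155.5, 136 and 151 CPM in MIZ1KO, against 157, 195, 243 and 230 CPM in Control (-0.49 ± 0.21, edgeR adjusted p = 0.159). Its groups were separated by a narrow margin, set by Control replicate 1. Zfp46 lay the other way, at 9.03, 11.2 and 14 CPM in MIZ1KO and 6.17, 8.25, 7.74 and 6.01 CPM in Control (0.69 ± 0.34, edgeR adjusted p = 0.222). Zfp362 had 76.4, 37.6 and 87.8 CPM in MIZ1KO and 43.6, 47.8, 36.9 and 43.4 CPM in Control, with MIZ1KO replicate 2 among the Control values (0.64 ± 0.25, edgeR adjusted p = 0.129). Zfp189 and Zfp593 had log2 fold changes of -0.21 and 0.57 with standard errors of 0.46 and 0.49.

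Of the 8 chromosome 4 members counted in the test, 0 were called higher and 0 lower by edgeR, by DESeq2 or by limma-voom, with 3 log2 fold changes above 0 and 5 below. At an unadjusted p under 0.05, edgeR placed 1 higher and 2 lower, counts for which no share over all genes is given. Over all genes tested and after adjustment, edgeR called 1.9% higher and 4.05% lower, DESeq2 3.64% and 6.0%, and limma-voom 1.09% and 1.85%. The MIZ1KO libraries lay wholly below the Control libraries for 3 of the 8 and wholly above for 1. Among all protein-coding genes tested, 7.93% had every MIZ1KO library below every Control library and 9.89% had every one above. The median log2 fold change of the 8 was -0.12, against -0.26 for the 215 members on other chromosomes, and the spread on chromosome 4, from -1.11 to 0.69, lay inside that of the others, from -2.13 to 1.25. The large opposite differences of Zfp990 and Zfp991 thus stood beside cluster neighbours whose differences did not pass the test.

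Genes other than Zfp around Zbtb17 and inside the cluster give the setting of these values. Within 10 Mb of Zbtb17, 168 such genes were tested, and 7 were higher and 6 lower. All genes tested gave 1.9% higher and 4.05% lower, and protein-coding genes tested 2.08% and 2.06%. The share higher near Zbtb17 thus lay above both backgrounds, and the share lower, 3.57%, lay between them. MIZ1KO lay wholly above Control for 20 of the 168 (11.9%) and wholly below for 8 (4.76%), against 8.74% and 10.8% over all genes tested. Over protein-coding genes tested these shares were 9.89% and 7.93%. The median log2 fold change of the 168 was 0.18. Their median GC content was 52.9%, against 48.4% over all genes tested and 49.0% over genes other than Zfp elsewhere on chromosome 4. Protein-coding genes of high GC content lay higher in MIZ1KO, as given below, and the part of GC content here was not tested. Inside the cluster 8 genes other than Zfp were tested, too few for a share to be read. The 8 ranged from -3.10 to 2.44, with 1 higher and 2 lower. The gene with the smallest p of the neighbourhood was Dhrs3, a retinal reductase 3.45 Mb from Zbtb17, at 2.45 ± 0.26 (log2 fold change, SE, adjusted p = 0.000139 by edgeR). Next came Gm26880, a noncoding RNA inside the Zfp cluster (2.44 ± 0.34, adjusted p = 0.00153), and Znf41-ps, whose counts are not independent of those of Zfp991. Elsewhere on chromosome 4, 8 of 498 genes other than Zfp were higher and 13 lower.

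Across the genome, Zfp genes with a KRAB box lay lower in MIZ1KO than in Control on balance, and few single genes passed the test. Of the 223 members counted, 0 were higher and 8 were lower in MIZ1KO at an edgeR adjusted p under 0.05, which is 3.59% lower. Among all genes tested, 1.9% were higher and 4.05% lower, and among protein-coding genes tested, 2.08% were higher and 2.06% lower. The share of members called lower is thus between these backgrounds. At an unadjusted p under 0.05, edgeR placed 7 members higher and 44 lower. The share of all genes at this unadjusted threshold was not counted. These and the other unadjusted counts given here thus have no background and are not read as an excess. With DESeq2, 1 member was higher and 17 lower (7.62%) after adjustment, where all genes gave 3.64% higher and 6.0% lower. With limma-voom 0 were higher and 3 lower (1.35%), where all genes gave 1.09% and 1.85%.

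In direction, 154 of the 223 members had a log2 fold change below 0 and 69 above, with a median of -0.25, against -0.03 over all genes tested and 0.03 over protein-coding genes. The MIZ1KO libraries lay wholly below the Control libraries for 42 members (18.8%) and wholly above for 5 (2.24%), where the protein-coding background is 7.93% below and 9.89% above. The 118 counted members with a KRAB box had a median of -0.45, with 92 below 0, 5 called lower and 31 (26.3%) with all MIZ1KO libraries below. The 105 without one had a median of -0.11, with 62 below 0, 3 called lower and 11 (10.5%) with all MIZ1KO libraries below. These counts stand as a description, since the KRAB genes were chosen with earlier results of the data known.

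Finger number moved with the same difference. Members with 1 to 4 C2H2 fingers had a median log2 fold change of 0.14 (30 genes), those with 5 to 9 of -0.19 (57 genes), those with 10 to 14 of -0.31 (73 genes) and those with 15 or more of -0.50 (57 genes). The median GC content of these groups fell in the same order, at 48.7%, 45.4%, 41.8% and 40.5%. Among members with 10 or more fingers, the 96 with a KRAB box had a median of -0.47 and the 34 without one of -0.20. Their median GC contents were 40.5% and 49.3%. Among members with 9 or fewer, the 21 with a KRAB box had a median of -0.07 and the 66 without one of -0.12. Theirs were 43.6% and 47.4%. The part of GC content in these medians was not tested.

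GC content also moved with the difference between the genotypes. The exons of KRAB members had a median GC content of 40.6%, those of members without the box 48.4% and those of protein-coding genes tested 49.1%. Split into 4 bins of equal size by GC content, protein-coding genes lay at a median of -0.27 in the lowest bin and 0.42 in the highest. In the lowest bin, the 92 KRAB members had a median of -0.52 with 78 below 0, the 35 members without the box had a median of -0.29 with 29 below 0, and of 2452 protein-coding genes 1847 were below 0. In the next bin the medians were -0.14 for 15 KRAB members, -0.35 for 24 without the box and -0.04 for protein-coding genes. In the bin above that, the 11 KRAB members had a median of 0.30 and the 16 others of 0.12, against 0.14 for protein-coding genes. With offsets for GC content and length in the fit, the median of the KRAB members was 0.10 and that of all members 0.03, against 0.14 for protein-coding genes, and 1 member was called lower.

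**Figure D2:**
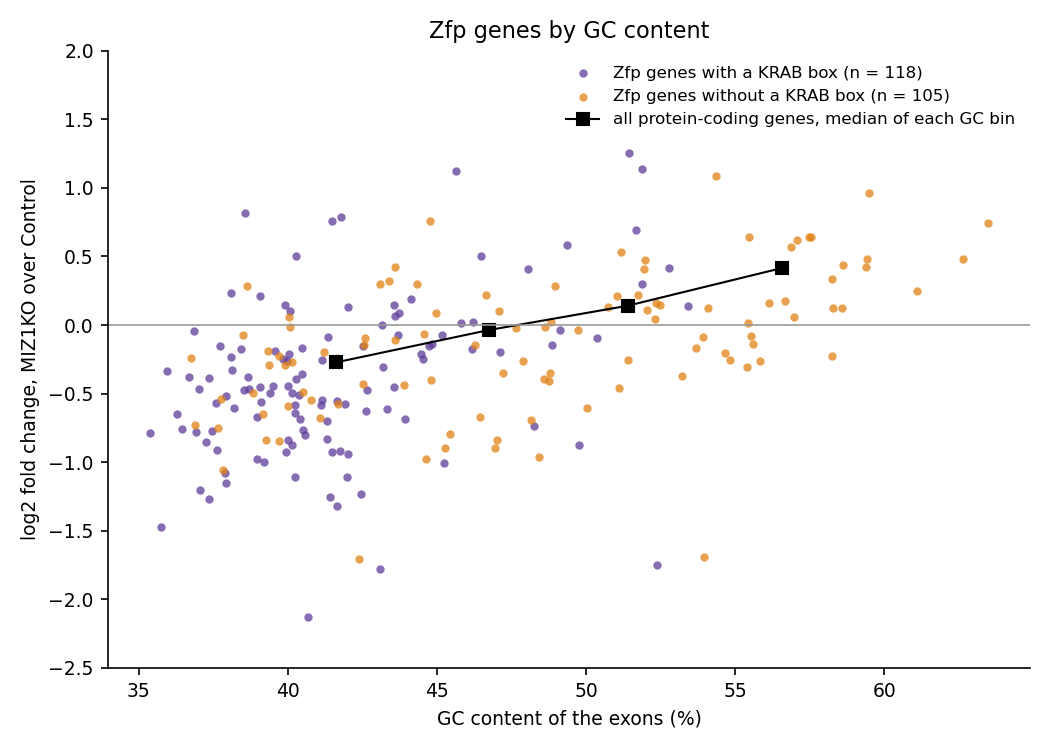
Log2 fold change of MIZ1KO over Control for the 223 counted Zfp genes against the GC content of their exons, with KRAB genes in purple, genes without the box in orange, and black squares at the median of all protein-coding genes in each of 4 bins of GC content. Zfp genes of low GC content lie mostly below 0, as do the protein-coding genes of the lowest bin, whose median is -0.27.

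By library, KRAB members took 0.209%, 0.259% and 0.233% of protein-coding counts in MIZ1KO, against 0.264%, 0.320%, 0.398% and 0.356% in Control. These shares include Zfp990 and Zfp991, which were chosen by their difference in these same libraries. The groups did not overlap, although Control replicate 1 lay next to MIZ1KO replicate 2. The members without the box took 0.696%, 0.609% and 0.715% in MIZ1KO, against 0.611%, 0.721%, 0.982% and 0.833% in Control, and these groups overlapped. For KRAB members without Zfp990 and Zfp991, the median log2 deviation from their mean over the 7 libraries was -0.37, -0.07 and -0.26 in MIZ1KO, against 0.10, 0.22, 0.23 and 0.23 in Control. The Control library nearest to MIZ1KO, replicate 1, also had the lowest share of TEC models among Controls. With the share of TEC models as a covariate, the median of the KRAB members was -0.23, that of the members without the box 0.17, and 0 members were called lower and 1 higher by edgeR, with 9 lower and 15 higher at an unadjusted p under 0.05.

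**Figure D3:**
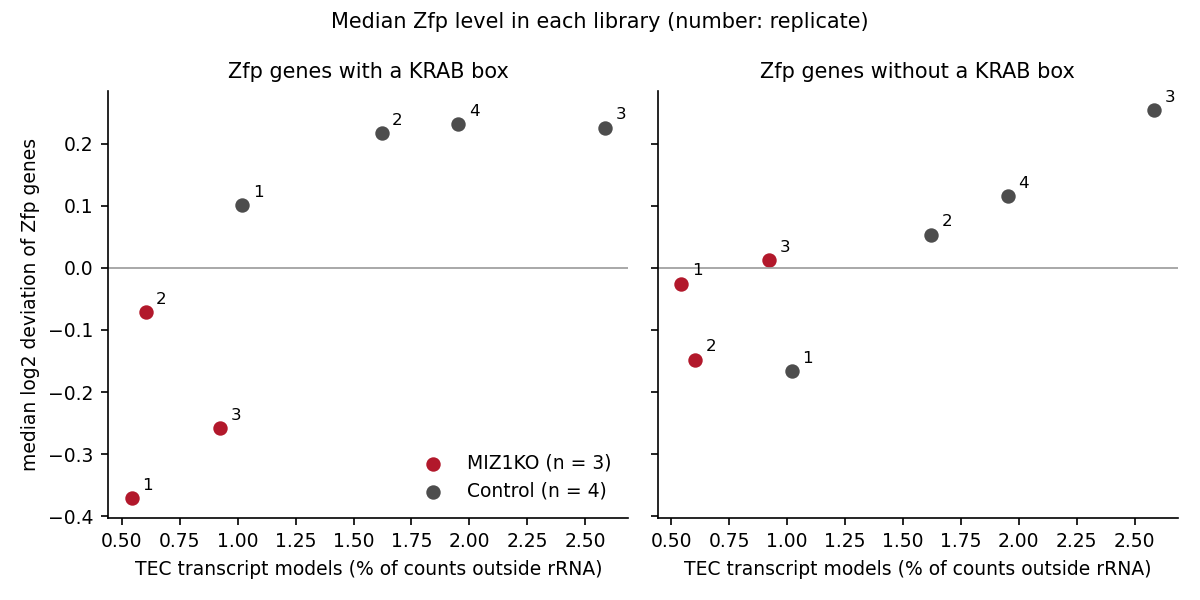
Median log2 deviation of Zfp genes from their mean over the 7 libraries, against the share of TEC transcript models in percent of counts outside ribosomal RNA, for genes with a KRAB box (left) and without (right); red points are MIZ1KO and grey points Control, numbered by replicate. The KRAB medians lie between -0.37 and -0.07 in MIZ1KO and between 0.10 and 0.23 in Control, and the TEC shares of the groups do not overlap.

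The 8 members called lower by edgeR were Zfp948, Zfp667, Zfp950, Zfp943, Zfp280c, Zfp367, Zfp263 and Zfp871. The first 4 and Zfp871 have a KRAB box. All 8 had every MIZ1KO library below every Control library. Their choice by the test on these same libraries favours that, so it adds no support. Zfp950, on chromosome 19 (61053840 to 61140840), had 10.6, 12.3 and 16.1 CPM in MIZ1KO, against 23.6, 30.6, 49.35 and 38.9 CPM in Control. It had the smallest p of the 8, with a log2 fold change of -1.47 ± 0.29 (SE, adjusted p = 0.0138), and it overlaps Grk5 in the annotation. Its Control values spread over a wider range than its MIZ1KO values.

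Zfp948 had the largest fold change of the 8, with 0.752, 2.498 and 1.29 CPM in MIZ1KO, against 5.90, 8.4, 8.27 and 5.21 CPM in Control (-2.13 ± 0.53, edgeR adjusted p = 0.0266). It lies in the chromosome 17 cluster that also holds Zfp943. Zfp943 had 5.27, 4.796 and 7.08 CPM in MIZ1KO, against 14.95, 10.6, 13.3 and 12.7 CPM in Control (-1.20 ± 0.35, edgeR adjusted p = 0.0478), and it overlaps 6 other models, Gm7052 among them. Zfp667 on chromosome 7 had 2.26, 1.40 and 4.50 CPM in MIZ1KO, against 10.4, 4.67, 9.06 and 10.1 CPM in Control (-1.78 ± 0.49, edgeR adjusted p = 0.0402). Its groups almost met, with MIZ1KO replicate 3 just under Control replicate 2.

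Zfp871, the most abundant of the 8, had 75.01, 91.1 and 94.9 CPM in MIZ1KO, against 101, 166, 180 and 176 CPM in Control (-0.84 ± 0.22, edgeR adjusted p = 0.0360). Control replicate 1 was far nearer to the MIZ1KO libraries than to the other Controls.

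In the other 3 called members the pattern search found no KRAB box. Zfp280c, on the X chromosome, had 17.0, 16.9 and 16.6 CPM in MIZ1KO, against 28.5, 34.2, 41.3 and 36.3 CPM in Control (-1.06 ± 0.24, edgeR adjusted p = 0.0200). Zfp263 on chromosome 16, which carries a SCAN domain, a module through which such proteins pair with each other, had 19.6, 23.8 and 20.6 CPM in MIZ1KO, against 36.5, 37.3, 42.1 and 49.9 CPM in Control (-0.96 ± 0.23, edgeR adjusted p = 0.0239). Zfp367 on chromosome 13, with 2 C2H2 fingers, had 14.5, 20.6 and 12.9 CPM in MIZ1KO, against 31.7, 25.4, 36.6 and 33.1 CPM in Control (-0.97 ± 0.26, edgeR adjusted p = 0.0367). Of its 50-base words, 10.2% also occurred in Gm47513, which overlaps it.

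**Figure D4:**
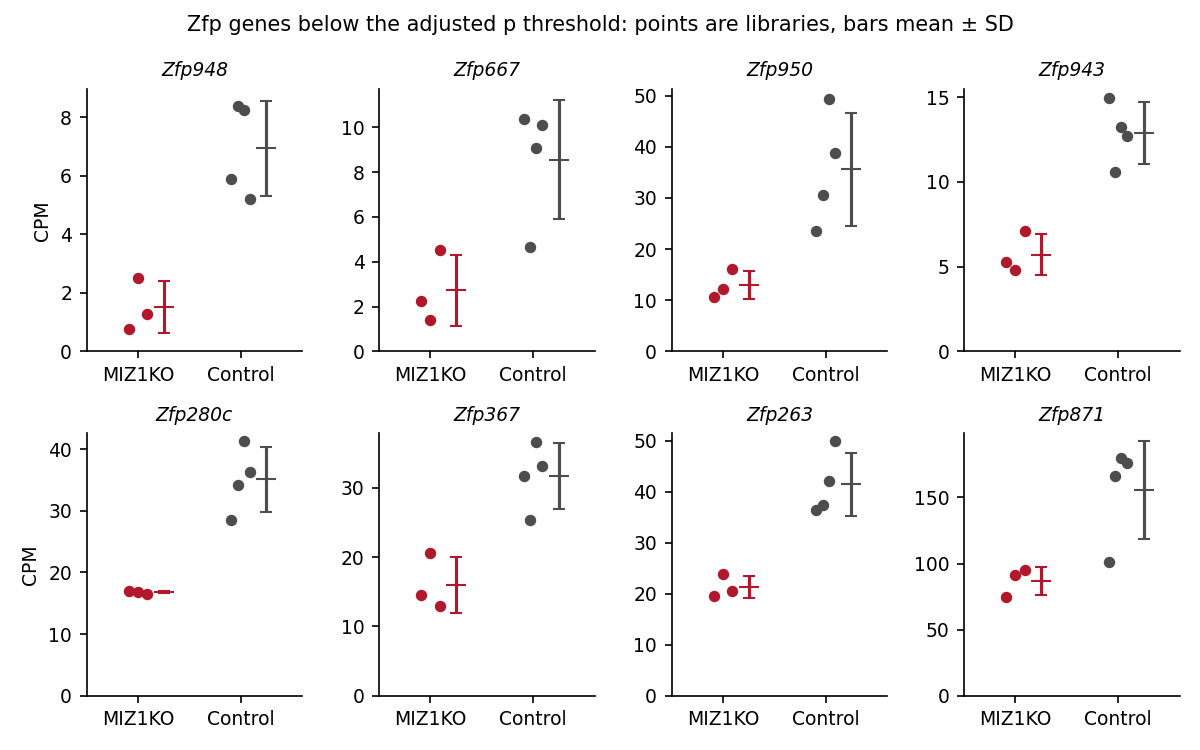
CPM of the 8 Zfp genes called lower in MIZ1KO, with 1 point per library and bars at the mean ± SD (n = 3 MIZ1KO, n = 4 Control); each panel has its own axis, which starts at 0. In every panel the MIZ1KO points lie below the Control points, by the smallest gap in Zfp667 (4.50 against 4.67 CPM).

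The calls rested on the full set of libraries. Without MIZ1KO replicate 1, 0 members were called lower by edgeR (22 at an unadjusted p under 0.05) and the KRAB median was -0.27, and without Control replicate 1, 18 were called lower. The calls of all genes moved alike, to 0.141% lower without MIZ1KO replicate 1 and 7.27% without Control replicate 1, beside 8.07% of members without the same Control. Without MIZ1KO replicate 2, 5 were lower, without MIZ1KO replicate 3, 2 were, and without Control replicates 2, 3 and 4, 1, 3 and 1 were. Over 19 alternative settings, Zfp950 lost its call in 3, Zfp263 in 6, Zfp948 and Zfp280c in 8, Zfp367 in 10, Zfp667 in 11, Zfp871 in 12 and Zfp943 in 18, and none of the 8 changed sign.

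The Zfp clusters of all chromosomes give the direction by place. Runs of at least 3 annotated Zfp genes with starts no more than 1 Mb apart formed 32 clusters, of which 31 held a member. The 135 counted members in clusters had a median log2 fold change of -0.39, and the 88 outside clusters one of -0.14. Of 11 clusters with at least 5 counted members, 9 had a median below 0 and 2 above.

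On chromosome 17, the cluster from 21008903 to 23599487 held 15 members, all with a KRAB box, of which 14 lay below 0, with a median of -0.50. Zfp948 and Zfp943 were called there, and 6 of the 15 had all MIZ1KO values under all Control values. Besides those 2, the separated genes were Zfp52, at 10.3 ± 4.54 CPM in MIZ1KO and 20.2 ± 1.45 CPM in Control (SD, n = 3 and 4), Zfp160, Zfp758 and Zfp994. The only member of that cluster above 0 was Zfp677, at 4.44 CPM in MIZ1KO and 3.82 CPM in Control on average (log2 fold change 0.23). The median GC content of the cluster was 38.1%. Of all 92 KRAB members in the lowest GC bin, 84.8% lay below 0, 30.4% were separated downward and 5.4% were called lower. Their median was -0.52, near that of the cluster, whose genes are among them. Of the 2452 protein-coding genes in that bin, 75.3% lay below 0, 17.6% were separated downward and 5.06% were called lower. The share of KRAB members called lower was thus near that of the bin.

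The other large chromosome 17 cluster, from 32765496 to 33631779, held 10 members with a median of -0.56, of which 9 lay below 0 and Zfp871 was called. The member above 0 was Zfp414, in which no KRAB box was found, with 11.5 CPM in MIZ1KO and 7.64 CPM in Control on average (0.62, edgeR adjusted p = 0.275). On chromosome 13, the cluster from 67038596 to 67827002 held 15 members with a median of -0.46, of which 13 lay below 0. There 0 were called by edgeR, DESeq2 or limma-voom, and 2 were lower at an unadjusted p under 0.05 by edgeR. The lowest of them was Zfp748, with 15.5 ± 5.52 CPM in MIZ1KO and 29.0 ± 6.57 CPM in Control (SD, n = 3 and 4, log2 fold change -0.88 ± 0.29, SE, edgeR adjusted p = 0.0768). The median GC content was 41.6% in this second chromosome 17 cluster and 39.1% in the chromosome 13 cluster.

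Chromosome 7, with 51 counted members, was split. Its cluster from 24081924 to 25227507 had a median of 0.58 over 5 members, led by Zfp94 at 9.13 ± 6.93 CPM in MIZ1KO and 4.08 ± 0.675 CPM in Control (SD, n = 3 and 4, log2 fold change 1.25 ± 0.48, SE, edgeR adjusted p = 0.122). The cluster from 6131491 to 7209998, which holds Zfp667, had a median of -0.89 over 5 members. The exons of the 5 members of the first had a median GC content of 51.4% and those of the second 45.8%. Over the whole chromosome 23 members lay above 0 and 28 below, with a median of -0.09.

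**Figure D5:**
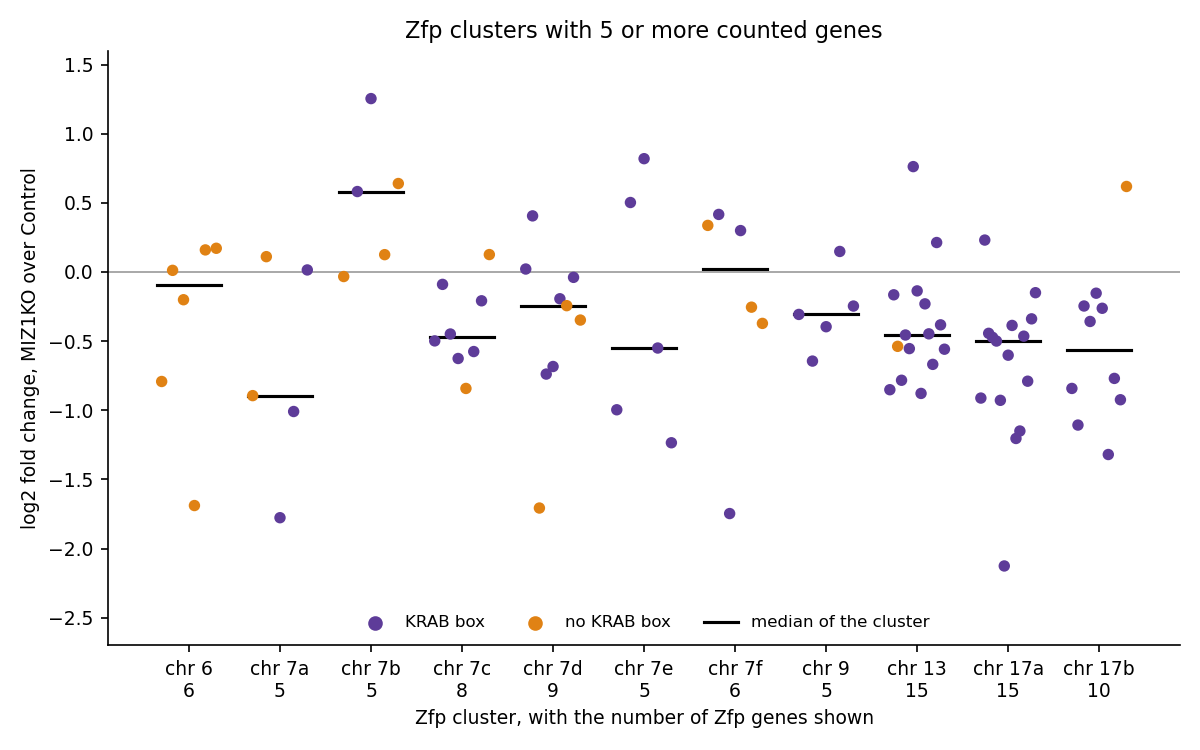
Log2 fold change of MIZ1KO over Control for the Zfp genes of the 11 clusters with at least 5 counted members, in order along each chromosome, with KRAB genes in purple, genes without the box in orange and black lines at cluster medians; letters tell clusters of 1 chromosome apart. The medians of the large clusters on chromosomes 13 and 17 lie between -0.46 and -0.56, and cluster 7b has the highest, 0.58.

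The members with every MIZ1KO library above every Control library were Zfp710, Zfp296, Zfp143, Zfp46 and Zfp110, and none passed the edgeR test, while DESeq2 called Zfp710 higher (adjusted p = 0.0353). Zfp710 had 64.8, 62.2 and 67.9 CPM in MIZ1KO, against 35.9, 36.7, 49.2 and 44.2 CPM in Control (0.64 ± 0.20, edgeR adjusted p = 0.0669). Zfp143, an activator bound at many promoters, had 17.4, 14.5 and 12.7 CPM in MIZ1KO, against 4.197, 8.09, 11.6 and 11.1 CPM in Control (0.76 ± 0.35, edgeR adjusted p = 0.184). Zfp296 averaged 11.4 ± 2.78 CPM in MIZ1KO and 5.85 ± 1.54 CPM in Control (SD, n = 3 and 4), or 0.96 ± 0.36 as log2 fold change (SE, adjusted p = 0.109 by edgeR).

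Per kilobase of exon, Zfp36l1 had the highest level of all members, at 77.8 CPM per kb over the 7 libraries, followed by Zfp207 (32.4 CPM per kb), Zfp36 (27.4 CPM per kb), Zfp706 (22.5 CPM per kb) and Zfp106 (21.8 CPM per kb). Zfp36l1 had 287, 216 and 274 CPM in MIZ1KO, against 216, 188, 198 and 248 CPM in Control (0.28 ± 0.20, edgeR adjusted p = 0.418), and 54.4% of its words are shared, mainly with the overlapping model Gm26669. Zfp36 had 119, 85.1 and 94.6 CPM in MIZ1KO, against 100.3, 88.5, 87.3 and 89.3 CPM in Control (0.13 ± 0.19, edgeR adjusted p = 0.738). Zfp36l2, the least abundant of the 3 RNA-decay proteins, had 33.6, 39.3 and 22.2 CPM in MIZ1KO, against 43.4, 37.2, 39.4 and 33.3 CPM in Control (-0.26 ± 0.24, edgeR adjusted p = 0.542). The groups overlapped in all 3 genes.

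Zfp207, a microtubule-binding protein of the mitotic spindle and kinetochore, had 156, 193 and 155 CPM in MIZ1KO, against 245, 246, 265 and 247 CPM in Control. The groups did not overlap, and with a log2 fold change of -0.58 ± 0.20 it missed the threshold (edgeR adjusted p = 0.0847). Zfp451, a SUMO ligase, averaged 46.2 ± 7.80 CPM in MIZ1KO and 74.0 ± 13.9 CPM in Control (SD, n = 3 and 4, log2 fold change -0.68 ± 0.22, SE, edgeR adjusted p = 0.0739). Zfp318, which B cells need to make IgD transcripts, averaged 25.1 ± 7.35 CPM in MIZ1KO and 23.2 ± 8.72 CPM in Control (0.09 ± 0.31, edgeR adjusted p = 0.899). Zfp598, which ubiquitinates collided ribosomes, and Zfp622, a factor of the large ribosomal subunit, had log2 fold changes of 0.48 and 0.43. Zfp809, which starts the silencing of retroviruses in embryonic cells, had one of -0.07, and Zfp568, a repressor of Igf2, one of -0.19.

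Of 30 members listed for a known role, 17 had a log2 fold change above 0 and 13 below. By edgeR 0 were called, with 3 higher and 2 lower at an unadjusted p under 0.05, while DESeq2 called 1 in each direction and limma-voom 0. Over all genes tested and after adjustment, edgeR called 1.9% higher and 4.05% lower, DESeq2 3.64% and 6.0%, and limma-voom 1.09% and 1.85%. Zfp592 and Zfp687, partners in a chromatin complex with ZMYND8, had log2 fold changes of 0.41 ± 0.23 and -0.31 ± 0.37 (SE). The promoter factors Zfp148, Zfp281 and Zfp384 had values of -0.29, 0.30 and 0.15. Zfp335, Zfp217, Zfp91, Zfp638, Zfp326, Zfp131, Zfp800, Zfp608, Zfp1 and Zfp35 lay between -0.44 and 0.42.

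Partners of KRAB proteins were read from a list. Of 35 co-repressor genes, all tested, edgeR called 2 higher and 0 lower, with 7 higher and 2 lower at an unadjusted p under 0.05, and DESeq2 called 6 higher and 1 lower. In all, 24 lay above 0 and the median log2 fold change was 0.11, where of 9812 protein-coding genes 5154 lay above 0, with a median of 0.03, and edgeR called 2.08% higher and 2.06% lower. Over all genes tested, DESeq2 called 3.64% higher and 6.0% lower. Gatad2a, a subunit of the NuRD deacetylase, averaged 82.1 ± 5.35 CPM in MIZ1KO and 41.9 ± 10.6 CPM in Control (SD, n = 3 and 4), or 0.97 ± 0.22 as log2 fold change (SE, adjusted p = 0.0189 by edgeR). Uhrf1, which brings DNA methyltransferase to replicated DNA, averaged 131 ± 20.4 CPM in MIZ1KO and 77.1 ± 4.55 CPM in Control (0.77 ± 0.19, edgeR adjusted p = 0.0270). Dnmt1, that methyltransferase, stood at 0.72 ± 0.23 (adjusted p = 0.0703 by edgeR), and Fam208a, of the silencing complex HUSH, one of -0.68 ± 0.21 (edgeR adjusted p = 0.0608). Of the other 41 listed KRAB and SCAN zinc finger genes, 19 were tested, too few for a share to be read. By edgeR 1 was higher and 1 lower, with 7 above 0 and a median of -0.34. Scand1, a SCAN protein without fingers, averaged 16.4 ± 2.47 CPM in MIZ1KO and 6.25 ± 3.88 CPM in Control (1.38 ± 0.38, edgeR adjusted p = 0.0421). The lower one was Znf41-ps, whose counts are not independent of those of Zfp991.

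For the Zfp36 family, 31 of 31 RNA decay partners were tested, with 1 higher and 0 lower by edgeR, 3 higher and 5 lower at an unadjusted p under 0.05, 15 above 0 and a median of -0.02. DESeq2 called 2 higher and 1 lower, where it called 3.64% higher and 6.0% lower over all genes tested. The edgeR background over protein-coding genes is 2.08% higher and 2.06% lower, of which 1 in 31 is near. Cnot11, a subunit of the CCR4-NOT deadenylase, averaged 25.8 ± 8.35 CPM in MIZ1KO and 12.8 ± 1.59 CPM in Control (1.02 ± 0.28, edgeR adjusted p = 0.0421). Of 20 listed target transcripts 15 were tested, too few for a share to be read against that background. By edgeR 1 was higher and 1 lower, with 8 above 0 and a median of 0.08. Ccnd3, the cyclin of germinal centre B cell expansion, averaged 123 ± 11.9 CPM in MIZ1KO and 69.6 ± 14.7 CPM in Control (0.82 ± 0.20, edgeR adjusted p = 0.0265). Dusp1, a MAP kinase phosphatase, averaged 3.42 ± 0.870 CPM in MIZ1KO and 10.99 ± 2.11 CPM in Control (-1.72 ± 0.40, edgeR adjusted p = 0.0218).

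Promoters were read for the E-box word CACGTG, which MYC binds together with MAX. RefSeq promoters of 300 bases were at hand for 189 members. The word, its own reverse complement, was in 2349 of 32851 promoters (7.15%), in 15 of 228 promoters of members (6.58%), in 10 of 119 promoters of KRAB members (8.403%) and in 2 of 10 promoters of the called members. Those of the called members belong to Zfp943 and Zfp871, and they are printed 5′ to 3′ on GRCm38.p6 with the word in capitals, at chr17:21962309-21962608 (plus strand) and chr17:32788238-32788537 (minus strand), as a description of the letters and not as a site.
Zfp943: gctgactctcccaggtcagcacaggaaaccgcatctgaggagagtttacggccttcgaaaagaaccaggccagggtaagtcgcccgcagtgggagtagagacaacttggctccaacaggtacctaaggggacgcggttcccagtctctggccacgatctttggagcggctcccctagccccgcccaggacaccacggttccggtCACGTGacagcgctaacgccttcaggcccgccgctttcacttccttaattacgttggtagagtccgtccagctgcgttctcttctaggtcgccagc
Zfp871: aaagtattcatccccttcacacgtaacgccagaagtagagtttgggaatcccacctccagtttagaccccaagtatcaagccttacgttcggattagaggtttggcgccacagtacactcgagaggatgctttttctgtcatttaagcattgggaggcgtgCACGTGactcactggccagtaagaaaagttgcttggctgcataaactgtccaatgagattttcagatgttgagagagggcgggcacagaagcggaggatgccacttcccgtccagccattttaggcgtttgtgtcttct

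Around the count threshold, the members just inside were Zfp560 and Zfp810, where the third highest count was 30, and Zfp341 and Zfp90 with 31. Just outside were Zfp934 with 29.9 and Zfp846, Zfp954 and Zfp446 with 29. Their log2 fold changes were -0.64, 0.19, 0.13 and 1.12 inside and -0.64, 0.00, -0.23 and -0.17 outside.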

How the data were processed

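RNA was sequenced from 7 samples of sorted mouse light zone germinal centre B cells, grouped by the genotype label. The authors deposited expected counts per gene, not normalized, of which 6.61% were not whole, and a table of log2 values, which the authors deposited as normalised expression by a function the labels leave unstated. The submitters' processing notes name STAR 2.5.2, RSEM 1.3.0, DESeq2 1.18.1 and R 3.4.3 with GRCm38, without roles. Strand setting and annotation release are unstated in the labels. Names, classes and coordinates came from GENCODE vM21, which matched 48435 identifiers.

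Counts were rounded, filtered with filterByExpr, scaled by TMM and compared by the quasi-likelihood test in edgeR 4.0.16 under R 4.3.3 (two-sided, robust, not the legacy fit), with Benjamini-Hochberg adjustment over 11618 genes. CPM use TMM-scaled totals. The fit was tested on simulated data. Ribosomal RNA models were kept in the totals, and an alternative left them out. The alternatives included DESeq2 1.42.0 and limma 3.58.1, the deposited log2 values, offsets for GC content and length, a covariate for TEC share and leaving out each library. No pair of libraries agreed within sampling noise (chi-square over degrees of freedom at least 16.1).

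The members, gene lists and roles were chosen with earlier results of these data known. KRAB boxes, SCAN domains and fingers were found by pattern in the longest GENCODE coding sequence of each gene, in place of a RefSeq protein table, which was not used here. Shared words are 50-base words of a gene's transcripts found in another gene's on either strand. Named genes were Zbtb17, Zfp990, Zfp991, all chromosome 4 members, called members, the 5 highest per kilobase, members with a listed role and up to 4 genes with the smallest p per list. Members picked out of clusters and those separated upward were chosen after their values were seen.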

Additional observations from a re-analysis of the deposited data

Results flagged for a closer look

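In the 4 Control libraries, 52 quantities were searched for a value far from the other 3, and 6 were found. Chance flags about 1 in 20 groups. Zfp148 had 80.4 CPM in Control replicate 1, against 57.0 to 61.0 CPM in the other Controls. Zfp36 had 100.3 CPM in Control replicate 1, against 87.3 to 89.3 CPM. Zfp207 had 265 CPM in Control replicate 3, against 245 to 247 CPM. Zfp598 had 9.19 CPM in Control replicate 3, against 5.71 to 6.17 CPM. Zfp990 had 0.131 CPM in Control replicate 1, which is 1 count, against 0 in the others. The median log2 deviation of KRAB members was 0.101 in Control replicate 1, against 0.22 to 0.23 in the other Controls, so that library lay nearest to MIZ1KO. Without Control replicate 1, the KRAB median log2 fold change was -0.41 and 18 members were called lower by edgeR.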

How the results depend on the processing

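No called gene changed sign under the 19 alternatives, but medians over the members did. The count of members called lower was 17 with DESeq2 (1 higher), 3 with limma-voom, 5 with the deposited log2 values, 5 with no filter, 1 with GC content and length offsets, and 0 with the TEC share as covariate (1 higher). Leaving out 1 library gave 0 to 18 lower and 0 to 1 higher, and on chromosome 4 0 to 1 in each direction. The median of all members was 0.0315 with GC content and length offsets, -0.0363 with the TEC covariate and -0.11 on the deposited log2 values, and for KRAB members 0.10, -0.23 and -0.18 in the same order, so with GC content and length offsets both turned above 0. For members without the box it was 0.17 with the TEC covariate, also above 0. Leaving out 1 library gave medians from -0.29 to -0.19 for all members, -0.47 to -0.27 for KRAB members and -0.18 to 0.00 for the others. The cause of these changes was not tested. With the replicate number as a block, 6 members were lower, 3 of them among the 8. The labels do not say that equal numbers mark shared animals or days, and the correlations of deviations for equal numbers were 0.02, 0.07 and 0.16.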
